A study of Mus musculus with 150 samples.

Results

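Airway secretory proteins were followed in mouse lung through 6 genes, the secretoglobins Scgb1a1, Scgb3a1 and Scgb3a2 and the BPI fold genes Bpifa1, Bpifb1 and Bpifa2. Each gene was read by the probe sets annotated to it. For Bpifb1, which had 2, the one with the higher mean over all arrays was kept. All 6 were measured and passed the filter on low values, out of 17097 genes with a probe set of their own. Whole lungs of 150 adult male mice from 1 supplier (Taconic) were profiled, 1 array per mouse, after 26, 52, 78 or 104 weeks of breathing air (0 ppm) or 120 ppm styrene, an aromatic solvent. The mice were wild-type C57BL/6 (WT, 31 arrays), C57BL/6 without the cytochrome P450 enzyme CYP2F2 (KO, 39), CYP2F2-null C57BL/6 with the insert that the labels write as 2F1,SA13,2B6 transgenic (TG, 38), and CD-1, an outbred stock (42). Air controls of KO and TG carried the same deletion as their exposed mates, and the promoter of the transgene is not given in the labels. The 31 groups held 2 to 10 mice, 71 mice in air and 79 under styrene, and for WT at 26 weeks styrene lungs alone were analysed here. The treatment label gives 6 hours a day on 5 days a week but a length of 1 or 4 weeks, which differs from each sample's own week label, used here.

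Secretoglobins are small secreted proteins of mucosal surfaces. Scgb1a1, the club cell secretory protein, is the main product of club cells, the secretory cells of mouse bronchioles in which CYP2F2 also acts. Scgb3a2 is made by club cells too, and Scgb3a1 by secretory cells of the upper airways. BPI fold proteins resemble the bactericidal/permeability-increasing protein of neutrophils. Bpifa1 (SPLUNC1) and Bpifb1 (LPLUNC1) are secreted into the fluid that lines the nose, trachea and large bronchi, where they take part in host defence, and Bpifa2 is the parotid secretory protein of saliva. FOXA factors and NKX2-1 are transcription factors of airway epithelium that are known to act on secretory genes.

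Bpifa2, Bpifa1 and Bpifb1 are neighbours on chromosome 2, with Bpifa3 and Bpifa5 between them, and in the arrays the first did not follow the other two. The start regions of these 3 and of Scgb3a1, the secretoglobin that varied most, are therefore shown, from 250 bases before to 50 bases after the gene start (RefSeq, GRCm38.p6, plus strand, 5′ to 3′). Capitals mark the letters TGTTTNC (the core of FOXA motifs) and TCAAG (the core of NKX2-1 motifs) on either strand. The windows are chr11:49663345-49663644 for Scgb3a1, chr2:154142630-154142929 for Bpifa1, chr2:154190568-154190867 for Bpifb1 and chr2:154008026-154008325 for Bpifa2.
Scgb3a1: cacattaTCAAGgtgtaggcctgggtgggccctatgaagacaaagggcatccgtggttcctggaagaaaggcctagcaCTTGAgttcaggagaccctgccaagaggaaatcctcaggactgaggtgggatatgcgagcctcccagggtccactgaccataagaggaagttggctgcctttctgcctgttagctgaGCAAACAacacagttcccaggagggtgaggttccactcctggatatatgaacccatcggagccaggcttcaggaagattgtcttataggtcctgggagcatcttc
Bpifa1: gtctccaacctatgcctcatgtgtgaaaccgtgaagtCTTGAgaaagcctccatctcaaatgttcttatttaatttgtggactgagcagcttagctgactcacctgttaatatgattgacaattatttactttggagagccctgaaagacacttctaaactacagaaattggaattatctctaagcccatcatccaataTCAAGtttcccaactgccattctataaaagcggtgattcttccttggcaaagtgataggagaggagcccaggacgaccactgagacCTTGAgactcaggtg
Bpifb1: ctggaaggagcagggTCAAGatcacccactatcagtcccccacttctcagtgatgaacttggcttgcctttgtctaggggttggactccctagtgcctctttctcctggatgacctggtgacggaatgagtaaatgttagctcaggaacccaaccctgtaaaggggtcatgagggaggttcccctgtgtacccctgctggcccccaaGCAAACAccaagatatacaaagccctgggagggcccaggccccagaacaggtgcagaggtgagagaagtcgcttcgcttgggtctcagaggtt
Bpifa2: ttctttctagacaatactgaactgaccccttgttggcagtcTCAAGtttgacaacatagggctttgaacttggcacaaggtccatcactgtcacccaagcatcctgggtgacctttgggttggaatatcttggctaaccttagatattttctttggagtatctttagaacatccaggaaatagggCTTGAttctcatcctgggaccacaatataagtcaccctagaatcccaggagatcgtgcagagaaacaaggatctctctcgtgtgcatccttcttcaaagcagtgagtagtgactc
TGTTTNC stood once in the windows of Scgb3a1 and Bpifb1, on the minus strand in each, at positions −55 and −43 from the start, and not in those of Bpifa1 and Bpifa2. TCAAG was found 2 times in Scgb3a1, 3 times in Bpifa1, 1 time in Bpifb1 and 2 times in Bpifa2. Of 32851 RefSeq promoters of this length, 20.5% held TGTTTNC and 40.7% TCAAG, so single matches are common. A further start of Bpifb1 (chr2:154200130-154200429) held neither, and a match is a description of letters only.

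The values are log2 intensities, so a difference of 1 is a 2-fold change, and levels of different probe sets cannot be set against each other. Over all probe sets their lowest was 1.74. Cyp2f2, the deleted gene, read 12.95 to 13.53 in WT and 11.69 to 12.55 in KO arrays, ranges that did not meet, and 11.80 to 12.40 in TG and 12.07 to 13.54 in CD-1. The KO level is still high, and it is not known whether these probes match deleted sequence, so the values check the KO label only in part. Markers of alveolar type 2 cells averaged 10.9 to 11.8 per array, of club cells 8.35 to 10.7 and of ciliated cells 5.24 to 7.63, so the labelled tissue carried airway as well as alveolar signal. Arrays lay on plates. Up to 78 weeks 88 were on plate 1 and 14 on plate 2, and at 104 weeks air arrays were on plate 3 and styrene arrays on plate 4, apart from 4 whose plate could not be read, so that dose and plate cannot be told apart then. In whole lung, fewer cells of a type and less RNA per cell cannot be told apart either. Replicates are separate mice, and p-values measure the spread between them. The main fit gave each gene 1 spread shared by all strains. Where CD-1 mice varied more than the others, the SE and p of CD-1 comparisons may be too small.

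The 6 genes fell into 3 kinds by how much they varied between mice of the same group. Bpifa1 had the largest pooled within-group SD of all 15695 genes tested, 2.02, Bpifb1 was number 6 with 1.44 and Scgb3a1 number 48 with 0.93, against a median gene of 0.21. Scgb1a1, at 0.06, was number 15683 and Scgb3a2, at 0.13, number 15047. Bpifa2 lay near the dim end of the scale in most mice and very high in 1, with an SD of 0.63 (number 218).

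Scgb1a1 read nearly the same in every array. Its lowest value over the 150 arrays was 13.59 and its range 1.33-fold, close to the highest value in the table, where rises and falls of the RNA alike may not show. Strain means were 13.86 in WT, 13.86 in TG, 13.87 in KO and 13.87 in CD-1, and neighbours in that order differed by less than the within-group SD. Scgb3a2 ranged from 12.32 to 13.51, a 2.29-fold range, with strain means of 13.28 in WT, 13.22 in TG, 13.28 in KO and 13.25 in CD-1. Scgb3a2 also lies high on the scale, where a change may not show in full. The lowest Scgb3a2 was that of 1 tumour-labelled CD-1 mouse in air at 104 weeks, which also had the lowest Scgb1a1 of all arrays.

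**Figure D1:**
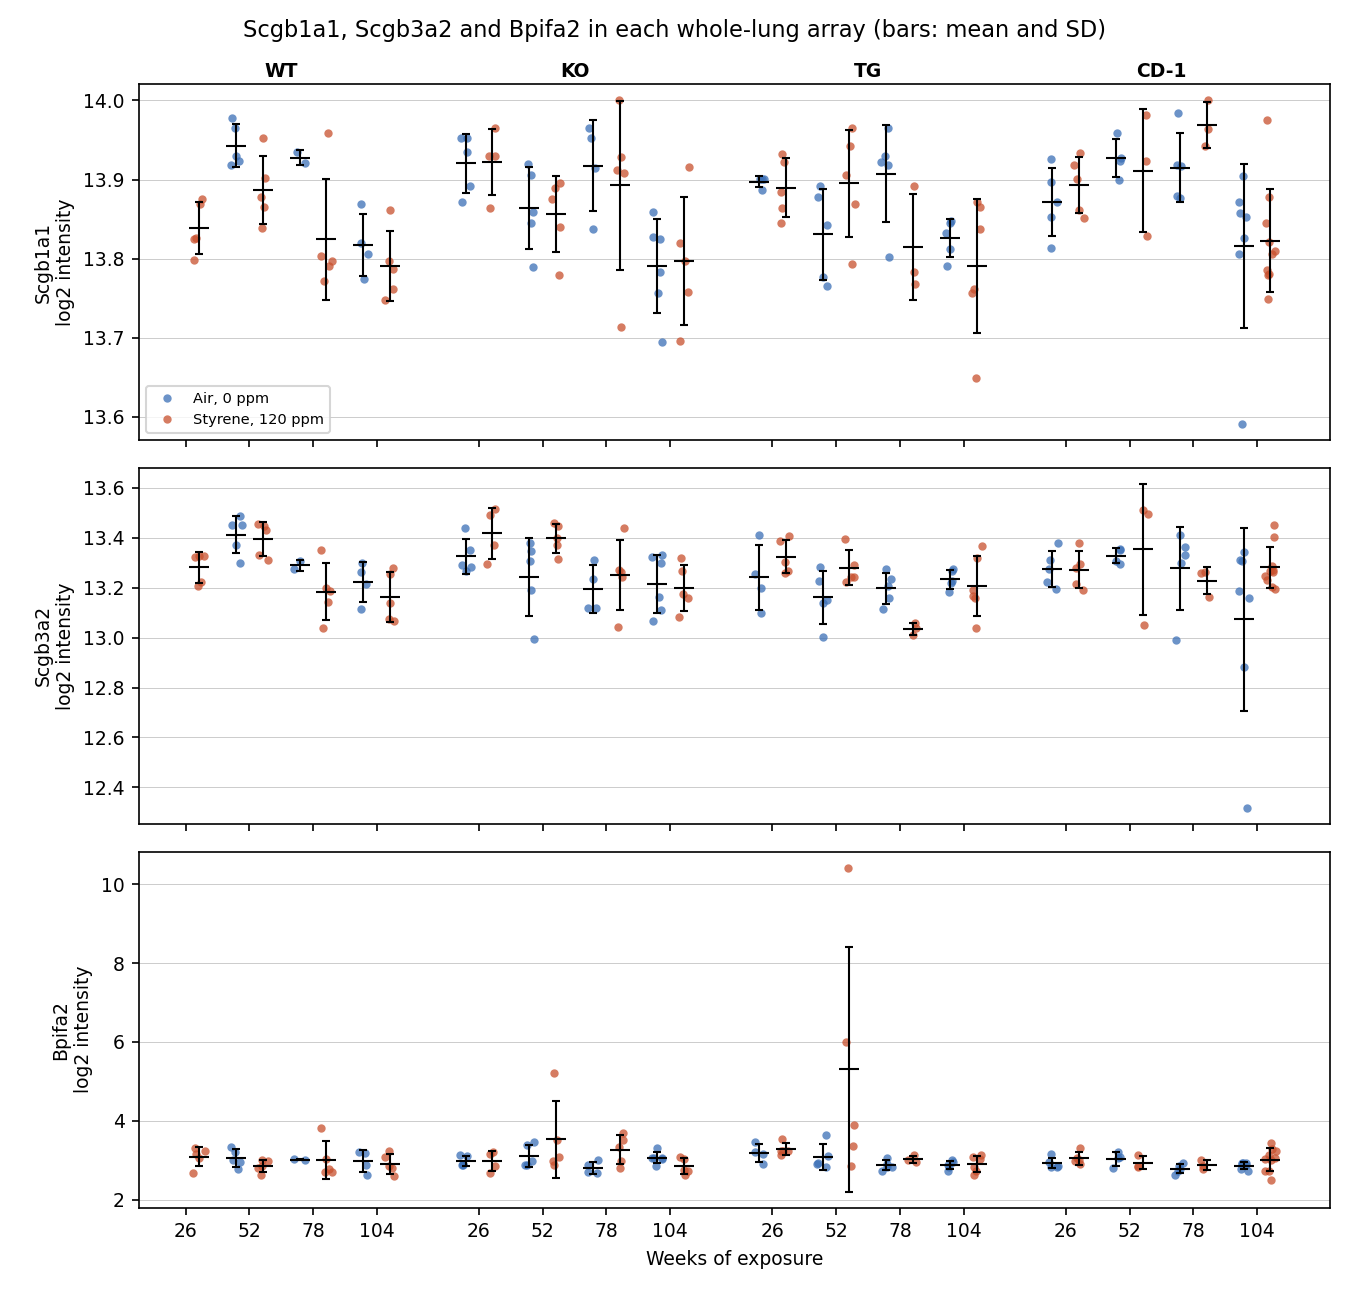
Log2 intensity of Scgb1a1, Scgb3a2 and Bpifa2 in each array by strain and weeks of exposure (blue, air; red, 120 ppm styrene; bars, mean and SD of a group; each panel has its own axis). Scgb1a1 does not go below 13.59, Scgb3a2 stays between 12.32 and 13.51, and Bpifa2 exceeds 5 in 3 arrays, all of styrene mice at 52 weeks.

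Scgb3a1, Bpifa1 and Bpifb1 covered wide ranges, and CD-1 lungs held their lowest values. Bpifa1 ran from 2.62 to 13.40, Bpifb1 from 3.19 to 11.80 and Scgb3a1 from 7.73 to 13.34. The mean of Bpifa1 over all arrays of a strain was 11.69 in KO, 11.38 in TG, 10.89 in WT and 8.86 in CD-1, and for Scgb3a1 12.33 in KO, 12.09 in TG, 11.75 in WT and 11.23 in CD-1. For Bpifb1 it was 8.82 in KO, 8.76 in WT, 8.45 in TG and 7.32 in CD-1, an order in which KO, WT and TG lay within the spread of mice. The strains differ in their share of styrene arrays (20 of 31 in WT). In air alone, over 52 to 104 weeks, Bpifa1 averaged 11.94 in KO, 11.75 in WT, 11.70 in TG and 8.63 in CD-1, and Bpifb1 8.99 in WT, 8.73 in TG, 8.64 in KO and 6.97 in CD-1. The order of WT, KO and TG thus turned for both, with CD-1 lowest in each. The spread of mice within a group was also widest in CD-1, with an SD of 2.99 for Bpifa1 against 1.20 in TG, 1.53 in KO and 1.67 in WT. For Scgb3a1 it was 1.23 in CD-1 and 0.68 to 0.89 in the others. For Bpifb1 CD-1 and KO were close, at 1.69 and 1.59, with 1.24 in TG and 1.04 in WT. The difference in spread was not tested.

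The 6 lungs with the least Bpifa1 were all CD-1, of both exposures and of 52, 78 and 104 weeks. Their Bpifa1 was 2.62 to 4.69, and in the 2 lowest it lay below the filter level, the array's 30th percentile (2.99 to 3.19). The same 6 lungs had Bpifb1 of 3.19 to 6.81 and Scgb3a1 of 7.73 to 10.56, whereas their Scgb1a1 was 13.83 to 13.96, their Cyp2f2 13.08 to 13.44 and their Sftpc, the alveolar surfactant protein C, 13.74 to 13.81. Scgb1a1, Cyp2f2 and Sftpc lie near the top of the scale, where a change may not show. Scgb3a2 was 12.99 to 13.36, against a median of 13.27 over all arrays, and lies as high on the scale as Cyp2f2. Foxj1, the master factor of ciliated cells, was 6.76 to 7.85 in them. The array mean of heart muscle markers was 5.00 to 5.79 in these lungs, below the median of all arrays (6.09) in each. That of ciliated markers was 6.13 to 6.94 (median 6.81) and that of club cell markers 9.61 to 10.27 (median 10.01). The part of these cells in the low values was not tested.

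**Figure D2:**
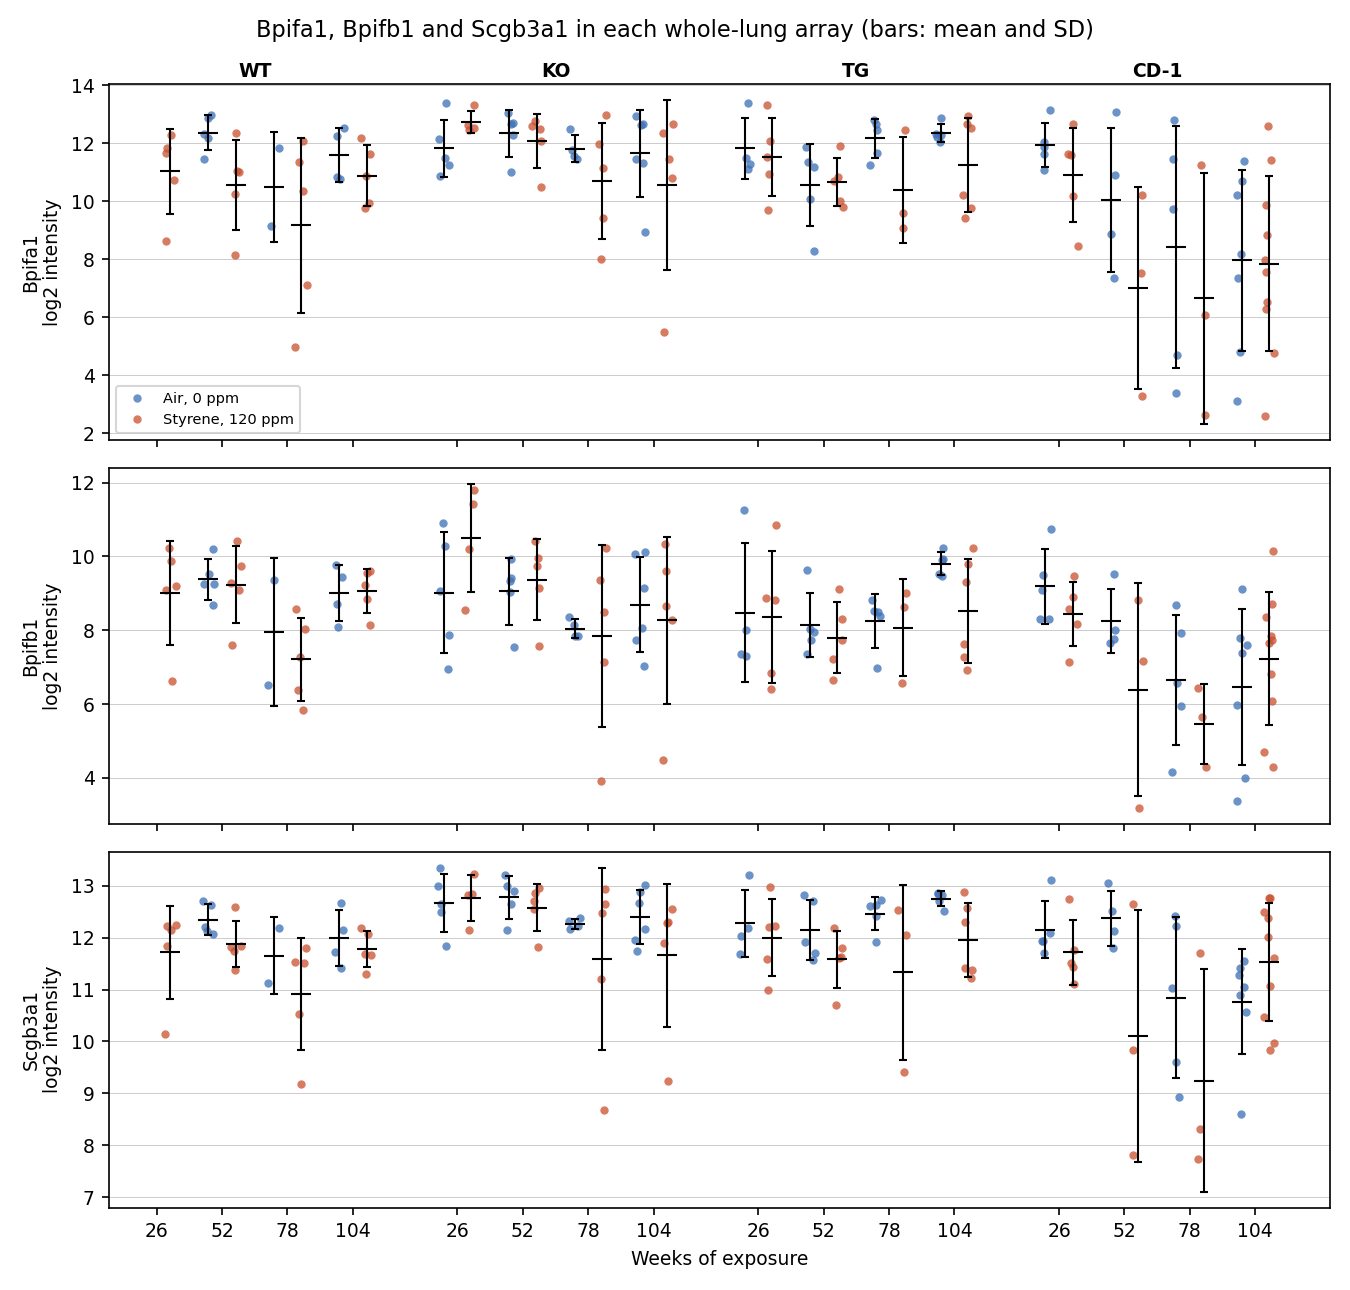
Log2 intensity of Bpifa1, Bpifb1 and Scgb3a1 in each array by strain and weeks of exposure (blue, air; red, 120 ppm styrene; bars, mean and SD of a group; each panel has its own axis). CD-1 arrays in air lie between 11.08 and 13.15 for Bpifa1 at 26 weeks and reach down to 3.39 at 78 and 3.13 at 104 weeks, while C57BL/6 arrays in air stay above 8.

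In air, CD-1 lungs had lower Bpifa1 and Bpifb1 than WT lungs. WT values of Bpifa1 were 12.87, 12.18, 12.34, 12.97 and 11.48 at 52 weeks, 11.85 and 9.16 at 78 weeks, and 10.83, 12.26, 12.52 and 10.77 at 104 weeks. CD-1 values were 8.86, 7.36, 13.08 and 10.93 at 52 weeks, 9.75, 3.39, 12.81, 11.47 and 4.69 at 78 weeks, and from 3.13 to 11.41 with a median of 8.17 at 104 weeks. In each week the groups overlapped, since some CD-1 mice reached WT levels and others lay far below. Over these weeks Bpifa1 averaged 11.75 ± 1.13 (SD) among 11 WT lungs and 8.63 ± 3.24 among 16 CD-1 lungs, a fitted difference of −2.74 (SE 0.83; 6.69-fold lower; limma, adjusted p = 0.0114). Bpifb1 was 8.99 ± 0.99 in WT and 6.97 ± 1.83 in CD-1, a difference of −1.69 (SE 0.59; 3.23-fold lower; adjusted p = 0.0334). Scgb3a1, at 12.09 ± 0.50 against 11.19 ± 1.26, did not pass the test (−0.65; adjusted p = 0.258). So 2 of 6 genes were called, both lower, where 17.4% of all genes tested were called. WT and CD-1 arrays of a week shared a plate except 1 CD-1 array. Without WT air mouse 1 of 78 weeks, which leaves that group with 1 mouse assumed to vary like the others, neither call held (Bpifa1 −2.29, adjusted p = 0.101, Bpifb1 −1.22, adjusted p = 0.258), while in the 12 other settings tried the adjusted p of Bpifa1 was 0.00413 to 0.025 and that of Bpifb1 0.0211 to 0.0469. Bpifb1 also lost its call, with adjusted p of 0.0515 to 0.0698, without WT mouse 2 of 104 weeks or CD-1 mouse 2 or 4 of 52, 2 of 78 and 1 or 3 of 104 weeks. Each of these fits gave WT and CD-1 the same spread, although the within-group SD of Bpifa1 was 2.99 in CD-1 and 1.67 in WT.

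A few other secreted products of the airway were called lower as well. Muc5b, a gel-forming airway mucin, was 2.67-fold lower in CD-1 (adjusted p = 0.00229) and Tff2, a trefoil peptide of mucus, 3.21-fold lower (adjusted p = 0.00066). Both were among the 5 genes most like Bpifb1 over the same arrays, so they are no separate support. Of the 23 other airway secreted proteins tested, 4 were called lower and 1 higher, a share near the 17.4% of all genes, with a median difference of −0.17 against −0.01 over all genes. Of 5 other BPI fold genes, Bpifb5 alone was called, 1.88-fold lower (adjusted p = 5.73e-07), and of 2 other secretoglobins none was. Markers of the cells around them also moved. Of 18 club cell markers 8 were called lower and none higher (median −0.23), and of 14 ciliated cell markers 7 lower and none higher (median −0.37), with Tekt1 at −0.56 (adjusted p = 0.000746) and Spag6l at −0.62 (0.000893). The array mean of ciliated markers was 6.61 to 7.30, 6.97 to 7.10 and 6.75 to 7.28 in WT air groups of 52, 78 and 104 weeks, and 6.51 to 6.96, 6.13 to 6.98 and 5.24 to 6.97 in CD-1. Of 7 basal cell markers 1 was lower, and of 12 salivary, 12 heart muscle and 11 cartilage markers none was called. The part of these markers in the differences of Bpifa1 and Bpifb1 was not tested.

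Under styrene, with all 4 weeks compared, the same genes and Scgb3a1 were lower in CD-1 than in WT. Bpifa1 had a mean of 10.42 ± 1.92 in 20 WT lungs and of 8.29 ± 3.19 in 21 CD-1 lungs, a fitted difference of −2.18 (SE 0.69; 4.54-fold lower; adjusted p = 0.0151). Bpifb1 differed by −1.69 (SE 0.49; 3.22-fold lower; adjusted p = 0.00762) and Scgb3a1 by −0.95 (SE 0.32; 1.93-fold lower; adjusted p = 0.0229). That is 3 of 6 genes, beside 17.2% of all genes tested. At 78 weeks all but 1 of the WT arrays were on plate 2 and all CD-1 arrays on plate 1, so strain and plate nearly coincide in that week. Muc5b was 3.13-fold lower (adjusted p = 7.97e-06) and Bpifb5 2.01-fold lower (adjusted p = 3.36e-11). These 2 were picked from their lists and do not stand for them. Of other genes most like the members, Tff2 was 2.14-fold lower (limma, adjusted p = 0.00952). Reg3g, at −1.09 (0.107), and Lypd2, at 0.01 (0.977), were not called. Of 18 club cell markers 3 were higher and 1 lower, and of 14 ciliated markers 4 lower. All 3 calls ended without WT styrene mouse 1 of 78 weeks, the one of its group on plate 1 (Bpifa1 −1.51, Bpifb1 −1.37, Scgb3a1 −0.81) and without CD-1 styrene mouse 3 of 52 weeks (−1.72, −1.29 and −0.67), and those of Bpifa1 (−1.68) and Scgb3a1 (−0.76) without CD-1 styrene mouse 2 of 78 weeks, with adjusted p of 0.0636 to 0.175 in these fits. Scgb3a1 also lost its call without CD-1 styrene mouse 3 of 78 weeks (−0.84).

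KO and TG lungs, which lack CYP2F2, were not called different from WT in air in any of the 6 genes, nor were KO lungs under styrene. In air the differences of Bpifa1 from WT were 0.46 in KO (95% interval −1.17 to 2.08) and 0.21 in TG (−1.41 to 1.83), and those of Scgb3a1 were 0.49 and 0.45. By limma 0 of 6 genes passed in KO minus WT (0.319% of all genes), in TG minus WT (0.503%) and in TG minus KO (0.344%), with 0, 1 and 0 at an unadjusted p below the threshold. The 1 was Scgb3a2, −0.11 in TG (unadjusted p = 0.043). Under styrene KO minus WT had 0 of 6 as well (2.14% of all genes; 1 unadjusted), with Scgb3a1 at 0.59 (adjusted p = 0.274) and Bpifa1 at 1.07 (0.363).

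**Figure D3:**
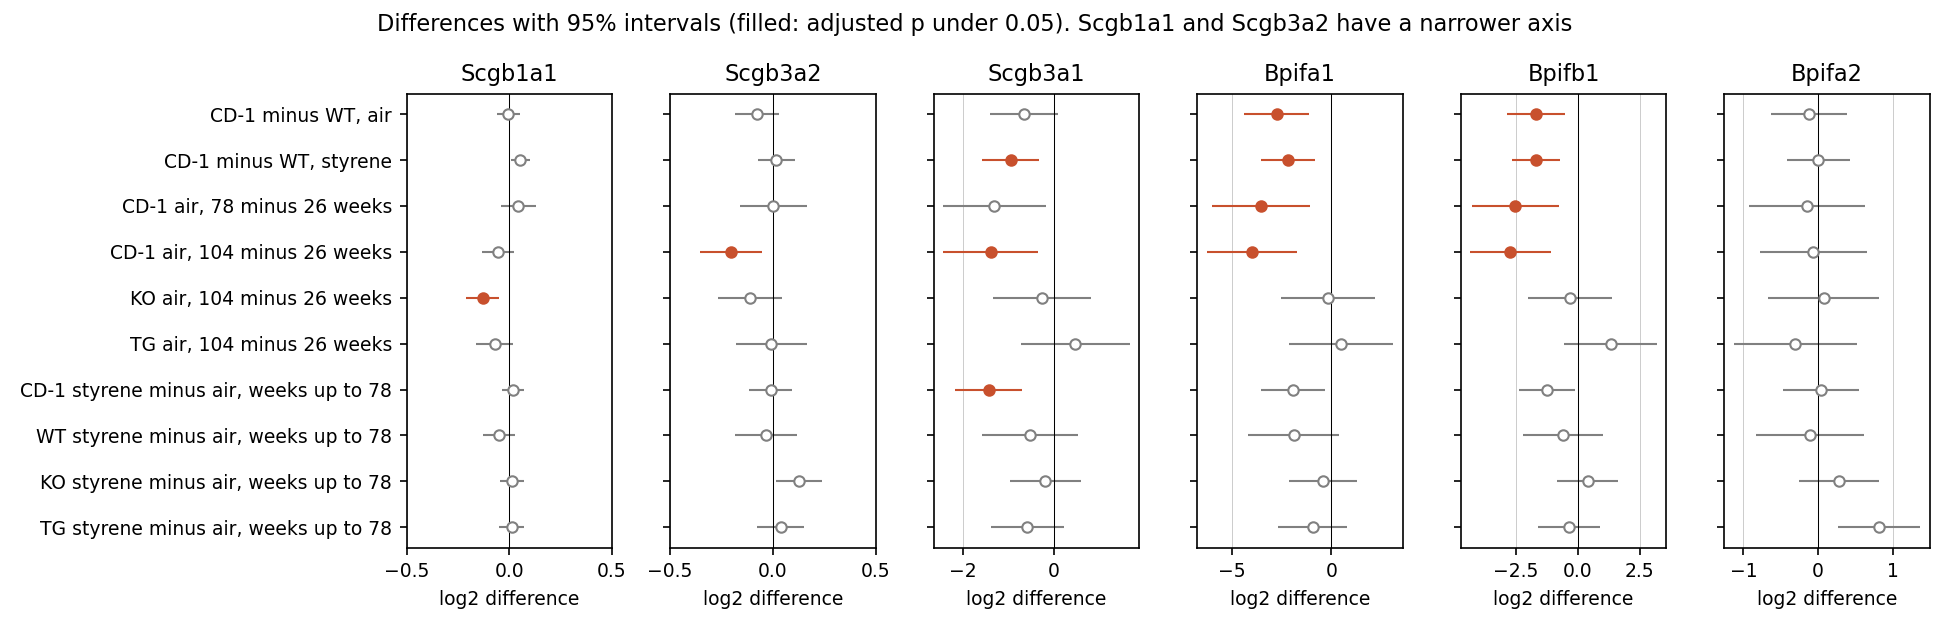
Fitted log2 differences with 95% intervals for each gene in 10 comparisons, filled where the adjusted p is below 0.05. The x axis of Scgb1a1 and Scgb3a2 is narrower than that of the others, and the filled points of Bpifa1 and Bpifb1 are all differences of CD-1 from WT or of older from younger CD-1 mice, from −1.69 to −3.99.

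In CD-1 mice in air Bpifa1 and Bpifb1 were called lower at 78 than at 26 weeks. At 26 weeks the 5 CD-1 mice had Bpifa1 of 11.08, 11.89, 13.15, 12.04 and 11.64, and at 78 weeks, as given above, 9.75, 3.39, 12.81, 11.47 and 4.69. The older group thus held 2 lungs far below every younger one, 1 a little below and 2 within the younger range. The difference was −3.54 (SE 1.26; 11.6-fold lower; adjusted p = 0.0287), and all these arrays lay on plate 1. Bpifb1 was 8.30, 8.30, 10.75, 9.09 and 9.49 at 26 weeks and 6.58, 4.15, 8.69, 7.92 and 5.94 at 78 weeks. Only 1 older mouse reached the younger range here, and the difference was −2.53 (SE 0.90; 5.78-fold lower; adjusted p = 0.0286). Scgb3a1 was 11.71 to 13.11 at 26 weeks and 11.03, 8.94, 12.43, 12.21 and 9.61 at 78 weeks, which did not pass (−1.31; adjusted p = 0.0827). With 2 of 6 genes called, beside 25.3% of all genes, the calls rested on few mice. Without mouse 2 of 78 weeks Bpifa1 was −2.28 (adjusted p = 0.183) and Bpifb1 −1.90 (0.122), and without mouse 5 −2.60 (0.157) and −2.35 (0.0733). Without mouse 3 of 26 weeks they were −3.24 (0.0709) and −2.14 (0.0955), Bpifa1 was also not called without mouse 4 of 26 weeks (0.0505) nor Bpifb1 without mouse 5 of 26 weeks (0.0566), and with CD-1 arrays fitted alone the values were 0.162 and 0.0767.

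From 26 to 104 weeks 4 of 6 genes fell in CD-1 mice, all beside 37.7% of all genes called. Bpifa1 went from 11.96 ± 0.76 (n = 5) to 7.97 ± 3.12 (n = 7), or −3.99 (SE 1.17; 15.9-fold lower; adjusted p = 0.0042), and Bpifb1 from 9.19 to 6.46, or −2.72 (SE 0.83; 6.61-fold lower; adjusted p = 0.00629). Both calls held with each of the 12 mice left out in turn, and Bpifa1 was not called with CD-1 arrays fitted alone (adjusted p = 0.0623 against 0.00275 to 0.0623 over 13 settings). Scgb3a1 fell by 1.39 on the log2 scale (adjusted p = 0.0318) and Scgb3a2 by 0.20 (adjusted p = 0.0276). Without mouse 3 of 104 weeks, tumour-labelled, Scgb3a1 was −1.03 (adjusted p = 0.133) and Scgb3a2 −0.08 (0.373), and both calls ended without all tumour-labelled mice and without mouse 3 of 26 weeks (−1.15 and −0.18). That of Scgb3a1 also ended without mouse 4 of 26 weeks (0.0507), with the replicate number as a block and in CD-1 arrays fitted alone. That of Scgb3a2 also ended without mouse 5 of 26 weeks (0.0576), without mouse 5 of 104 weeks (0.0797), after quantile normalization (−0.14) and in CD-1 arrays fitted alone. Over 13 settings the adjusted p was 0.0184 to 0.176 for Scgb3a1 and 0.0013 to 0.892 for Scgb3a2. The 104 week arrays were on another plate than those of 26 weeks, so age and plate cannot be told apart in this comparison.

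Of 18 club cell markers, 4 were called lower at 78 weeks, beside 25.3% of all genes called, and 12 at 104 weeks, beside 37.7%, with none higher, among them Lypd2, 2.43-fold lower at 104 weeks (adjusted p = 0.000429), and Acsm1, 2.72-fold lower (adjusted p = 1.22e-06). Of 23 other airway secreted proteins 2 and 7 were lower, including Chia1, an acidic chitinase, 2.35-fold lower at 104 weeks (adjusted p = 3.77e-06), and Muc5b, 2.44-fold lower (adjusted p = 0.038). Of 19 airway transcription factors 6 were lower and 2 higher at 78 weeks and 10 lower at 104 weeks, with Elf3, an epithelial ETS factor, 1.91-fold and 2.02-fold lower. Ciliated markers did not go 1 way, with 2 higher and 2 lower of 14 at 78 weeks and 1 higher and 4 lower at 104 weeks. The array mean of club cell markers was 10.00 to 10.38 at 26 weeks, 9.65 to 10.07 at 78 weeks and 8.35 to 10.05 at 104 weeks. Among the relatives, Scgb1b27 was 1.31-fold and 1.37-fold lower. No heart muscle marker of 12 was called in either week, at medians of −0.29 and −0.65. The part of these cells in the fall of Bpifa1 and Bpifb1 was not tested.

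In C57BL/6 mice in air the wide-ranging genes were not called different with age. Bpifa1 differed by −0.00 in KO and 0.35 in TG from 26 to 78 weeks, by −0.16 in KO and 0.51 in TG from 26 to 104 weeks, and by −0.77 in WT from 52 to 104 weeks, each with an adjusted p of at least 0.751. The intervals were wide, from −2.62 to 2.61 for KO at 78 weeks. Bpifb1 was not flat in these strains, though not called. In TG it was 1.33 higher at 104 weeks, from 7.30 to 11.27 at 26 weeks to 9.47 to 10.23. In KO it was 6.96 to 10.92 at 26 weeks and 7.84 to 8.37 at 78 weeks. Scgb1a1 was lower at 104 weeks in KO, from 13.92 to 13.79 (−0.13; SE 0.04; adjusted p = 0.0163; 1 of 6 genes, beside 20.7% of all genes), and in WT from 13.94 at 52 weeks to 13.82 (−0.13; adjusted p = 0.0478; 1 of 6, beside 15%). The 104 week air arrays were on plate 3 and the earlier ones on plate 1, so age and plate cannot be told apart in these strains either. Scgb1a1 was 13.87 to 13.95 in the 5 KO mice of 26 weeks and 13.69 to 13.86 in the 6 of 104 weeks. After quantile normalization the differences were −0.02 in KO (adjusted p = 0.751, against 0.000883 to 0.751 over 13 settings) and −0.07 in WT (0.22, against 0.0104 to 0.22), the KO call also ended without KO mouse 6 of 104 weeks (0.0564), and the WT call ended in 8 of 9 fits that left out a mouse, with adjusted p up to 0.129, and also without a plate term and without tumour-labelled mice. In KO from 26 to 78 weeks, and in TG from 26 to 78 and to 104 weeks, 0 of 6 genes were called by limma, none of them at an unadjusted p below the threshold, where 20.5%, 18.3% and 13.8% of all genes were.

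Whether CD-1 differed from the CYP2F2-null strains in these changes was asked after the values had been seen, since WT had no 26 week controls. At 26 weeks in air Bpifa1 was 11.96 in CD-1 and 11.83 in the mean of KO and TG, a difference of 0.13 with a 95% interval of −2.05 to 2.31, and 0 of 6 genes were called by limma (7.26% of all genes), none at an unadjusted p below the threshold. At 78 weeks Bpifa1 was 8.42 in CD-1 and 12.00 in the others, −3.58 (SE 1.11; 12-fold lower; adjusted p = 0.0291; 1 of 6, beside 6.78%), with Scgb3a1 at −1.52 (adjusted p = 0.0519) and Bpifb1 at −1.49 (0.339). That call ended without CD-1 mouse 2 (−2.32; adjusted p = 0.331), CD-1 mouse 5 (−2.65; 0.207) or KO mouse 2 (−3.47; 0.0504), and held in 12 of 12 other settings (0.0212 to 0.0351). The test of the difference in change itself, from 26 to 78 weeks, gave −3.71 for Bpifa1 (SE 1.57; unadjusted p = 0.02; adjusted p = 1) and called 0 of 6 genes by limma, 1 of them at an unadjusted p below the threshold, beside 0.0191% of all genes.

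Few tests of these genes passed for styrene against air. A test that did not pass does not show that a gene was unchanged. In 15 comparisons of styrene with air within a strain and week, 2 of 90 tests passed, and 4 had an unadjusted p below the threshold. Up to 78 weeks all genes were called at 0.401% and 0.00637% in WT at 52 and 78 weeks, 0%, 0.0127% and 0% in KO and 0%, 0.0127% and 0.191% in TG at 26, 52 and 78 weeks, and 0.65%, 0.0701% and 0.121% in CD-1. Differences were negative in 13 of 15 comparisons for Bpifa1 and for Scgb3a1, in 11 for Bpifb1, 8 for Scgb1a1, 7 for Scgb3a2 and 6 for Bpifa2. These comparisons differ in mice but share a plate term, and no test was made of the counts. Scgb3a2 in TG at 78 weeks was 13.04, 13.01 and 13.06 under styrene and 13.21, 13.24, 13.11, 13.27 and 13.16 in air, with no overlap. Those styrene arrays were all on plate 2 and the air arrays on plate 1, and with the plate term the difference was −0.09 (adjusted p = 0.699). How often the groups of other genes lay apart was not counted. Averaged over weeks up to 78, Bpifa1 was −1.94 in CD-1 (95% interval −3.54 to −0.33; adjusted p = 0.315), −1.89 in WT, −0.42 in KO and −0.93 in TG, none of them called. In WT, KO and TG 0 of 6 genes passed by limma, with 0, 1 and 1 at an unadjusted p below the threshold, where 0.0382%, 0% and 0% of all genes were called. At 78 weeks all styrene arrays of KO and TG, and most of WT, were on plate 2, and their air arrays on plate 1. Dose and plate thus coincided in part of these averages, which lean on the plate term. With no plate term limma called Bpifa2 in TG (0.82; adjusted p = 0.0171 against 0.19).

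Scgb3a1 was the 1 gene called in these averages, in CD-1. In air its values were 11.71, 11.93, 13.11, 12.09 and 11.93 at 26 weeks, 11.80, 12.12, 13.04 and 12.51 at 52 weeks, and at 78 weeks the 5 given above. Under styrene they were 12.74, 11.43, 11.77, 11.51 and 11.11 at 26 weeks, 9.84, 12.65 and 7.82 at 52 weeks, and 11.70, 7.73 and 8.32 at 78 weeks. The groups overlapped in each week, and 4 of the 6 styrene mice of 52 and 78 weeks lay below 10, against 2 of the 9 air mice. The average was −1.44 (SE 0.38; 2.71-fold lower; adjusted p = 0.0351), 1 of 6 genes beside 0.835% of all genes, made up of −0.40 at 26, −2.32 at 52 and −1.60 at 78 weeks, of which none was called alone (adjusted p = 0.989, 0.416 and 0.396). At 104 weeks, where dose and plate cannot be told apart, the sign turned. There Scgb3a1 was 0.77 higher under styrene in CD-1, not called, with 7 of 10 styrene mice above the air mean. In the averages up to 78 weeks Bpifb1, at −1.26 (adjusted p = 0.368), Tff2, at −1.40 (0.0553), and Muc5b, at −0.89 (0.285), were also negative. They were among the 5 genes most like Scgb3a1 over the same arrays, so their sign is no separate support. Of the other airway secreted proteins Retnla alone was called, 2.57-fold higher (adjusted p = 0.0195), and of 18 club cell, 14 ciliated and 12 heart muscle markers none, at medians of 0.03, 0.02 and −0.13. The call did not hold with plate 2 arrays left out or with CD-1 fitted alone (−1.34 to −1.44 over 13 settings, adjusted p 0.0242 to 0.396). It also ended in 11 of 25 fits that left out a mouse, at −1.06 (adjusted p = 0.165) without styrene mouse 3 of 52 weeks, −1.18 (0.16) without styrene mouse 2 and −1.28 (0.161) without styrene mouse 3 of 78 weeks, and between −1.31 and −1.43 without air mouse 3 of 26, 3 or 4 of 52 and 3 or 4 of 78 weeks or styrene mouse 2 or 5 of 26 and 1 of 52 weeks, where the adjusted p was 0.0506 to 0.122.

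That effect was not shown to differ from that of other strains. The CD-1 minus WT effect on Scgb3a1, over 52, 78 and 104 weeks, was −0.63 (adjusted p = 0.783), and CD-1 minus the mean of KO and TG up to 78 weeks was −1.05 (unadjusted p = 0.0367; adjusted p = 0.65; 0 of 6 genes, beside 0.102% of all). Over the 3 planned differences of effect, 0 of 18 tests passed by limma and 0 had an unadjusted p below the threshold, where 0.0892% of all genes were called for WT minus KO, 0.0701% for CD-1 minus WT and 0% for TG minus KO.

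At 104 weeks, where plate and dose cannot be told apart, Scgb3a2 was called higher under styrene in CD-1. In air it ranged from 12.32 to 13.34 with a median of 13.19 (n = 7), and under styrene from 13.19 to 13.45 with a median of 13.26 (n = 10). The groups overlapped, and 4 air mice lay below every styrene mouse, at 12.32, 12.88, 13.16 and 13.19, of which the 2 lowest were tumour-labelled. The difference was 0.21 (SE 0.06; 1.16-fold; adjusted p = 0.00341), 1 of 6 genes where 63.6% of all genes were called and the median gene moved by 0.16. Of 18 club cell markers 11 were higher and none lower (median 0.47), and of 23 other airway secreted proteins 13 were higher and 1 lower. Without air mouse 3 it was 0.08 (adjusted p = 0.191; 5.99e-05 to 0.4 over 13 settings), and it was not called without tumour-labelled mice, with CD-1 fitted alone or with a term for plate 4. In WT, KO and TG at this week 48%, 39.4% and 0% of all genes were called by limma and 0 of 6 of these, none at an unadjusted p below the threshold. In CD-1 mice of 104 weeks, tumour-labelled animals (2 in air and 5 under styrene) differed from the others in 0 of 6 genes by limma (0% of all genes), and Scgb3a2, at −0.30, had an adjusted p of 0.471 and an unadjusted p of 0.0088.

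Bpifa2, the salivary member, was called once. In TG mice at 52 weeks its values under styrene were 10.42, 5.99, 3.89, 3.37 and 2.84, and in air 2.84, 2.89, 2.92, 3.11 and 3.63. In the styrene group 1 lung stood far above all others, the next 2 also lay above every air lung and the remaining 2 within the air range, so the groups overlapped. The difference was 2.22 (SE 0.40; at least 4.34-fold higher; adjusted p = 0.00194), 1 of 6 genes where 0.0127% of all genes were called. Without the highest lung it was 0.94 (adjusted p = 0.0692), while in 12 other settings the adjusted p was 0.00159 to 0.0399. The fold is a bound because air values lay at the filter level, above which Bpifa2 stood in 50 of 150 arrays. Outside this group the highest were a KO mouse under styrene at 52 weeks, at 5.20, and a WT mouse under styrene at 78 weeks, at 3.81.

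The lung with the most Bpifa2 also held RNA of other salivary gland genes. Its Amy1, salivary amylase, was 7.18, where all arrays outside the TG and KO styrene groups of 52 weeks reached 4.62 at most. Its Dnase1 was 7.19 against at most 3.40, Pip, the prolactin-induced protein, 6.02 against 3.36, Smr3a 6.11 against 3.40 and Car6, a secreted carbonic anhydrase, 5.60 against 3.55. Of 16 salivary or Bpifa2-like genes looked at, 6 were above the highest of the other arrays in this lung and 10 were not. Of the 6, Dnase1, 2310057J18Rik, Car6 and Pip were among the genes most like Bpifa2 over the same arrays. That likeness was measured with this lung included, so their high values here are no separate support. Among the 10 were Prol1 (3.16), Dcpp1 (2.96), the lactoperoxidase gene Lpo (3.18), Dcpp3 (4.05 against 6.50) and Wfdc12 (5.57 against 6.16). In the lung with the next highest Bpifa2 Dnase1 was 2.98 and Amy1 3.48, inside the range of the other arrays. Over the group none of 12 salivary markers was called (median 0.06), and its part in the result was not tested beyond these values.

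**Figure D4:**
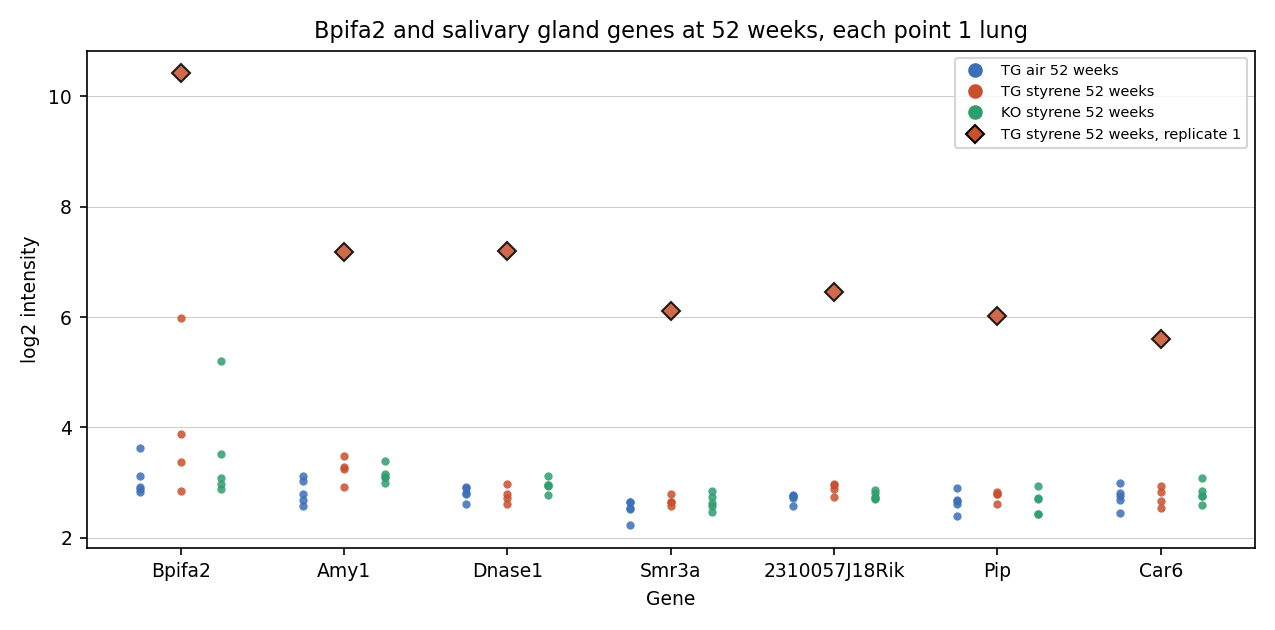
Log2 intensity of Bpifa2 and 6 genes that were high with it, in TG air, TG styrene and KO styrene mice at 52 weeks (1 point per lung; black-edged diamonds, TG styrene mouse 1). That lung lies between 5.60 and 10.42 for all 7 genes, and the other lungs lie below 4 except 2 for Bpifa2.

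Across mice of the same group, Scgb3a1, Bpifa1 and Bpifb1 were high and low together. The deviations of 150 arrays from their group means correlated with r = 0.83 (Spearman rho 0.87) for Scgb3a1 and Bpifb1, 0.78 (0.79) for Scgb3a1 and Bpifa1, and 0.79 (0.82) for Bpifa1 and Bpifb1. Each had a permutation p = 1e-05, the smallest that 100000 permutations within groups can give, or 2.14e-05 adjusted over 15 pairs for r and 2.5e-05 for rho. Without the 2 arrays farthest out r was 0.81, 0.77 and 0.79. Within plates r was 0.77 to 0.89, 0.56 to 0.87 and 0.76 to 0.85, and within strains 0.79 to 0.93, 0.60 to 0.88 and 0.80 to 0.85. Scgb3a2 followed them more loosely, at 0.48 with Scgb3a1, 0.47 with Bpifa1 and 0.52 with Bpifb1 (adjusted p = 2.14e-05 each). Within plate 2 these were 0.01, 0.41 and 0.17, over its 14 arrays.

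Scgb1a1 and Scgb3a2, the club cell pair, had r = 0.51 (rho 0.41; adjusted p = 2.14e-05 and 6.43e-05), 0.37 without the 2 arrays farthest out, and 0.09 within TG. With Scgb3a1 and Bpifb1 Scgb1a1 had r of 0.14 and 0.18 (adjusted p = 0.237 and 0.144). With Bpifa1 it had r = 0.22 (rho 0.20; adjusted permutation p = 0.0497 and 0.0426), and 0.20 without the 2 arrays farthest out. On plate 2 these were −0.60, −0.61 and −0.30, opposite in sign. Bpifa2 had r between −0.13 and 0.00 with the others, the lowest with Scgb3a2 (rho −0.26; adjusted p = 0.0138 for r). Since Bpifa2 lay below the filter level in 100 of 150 arrays, these values mostly order background readings.

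**Figure D5:**
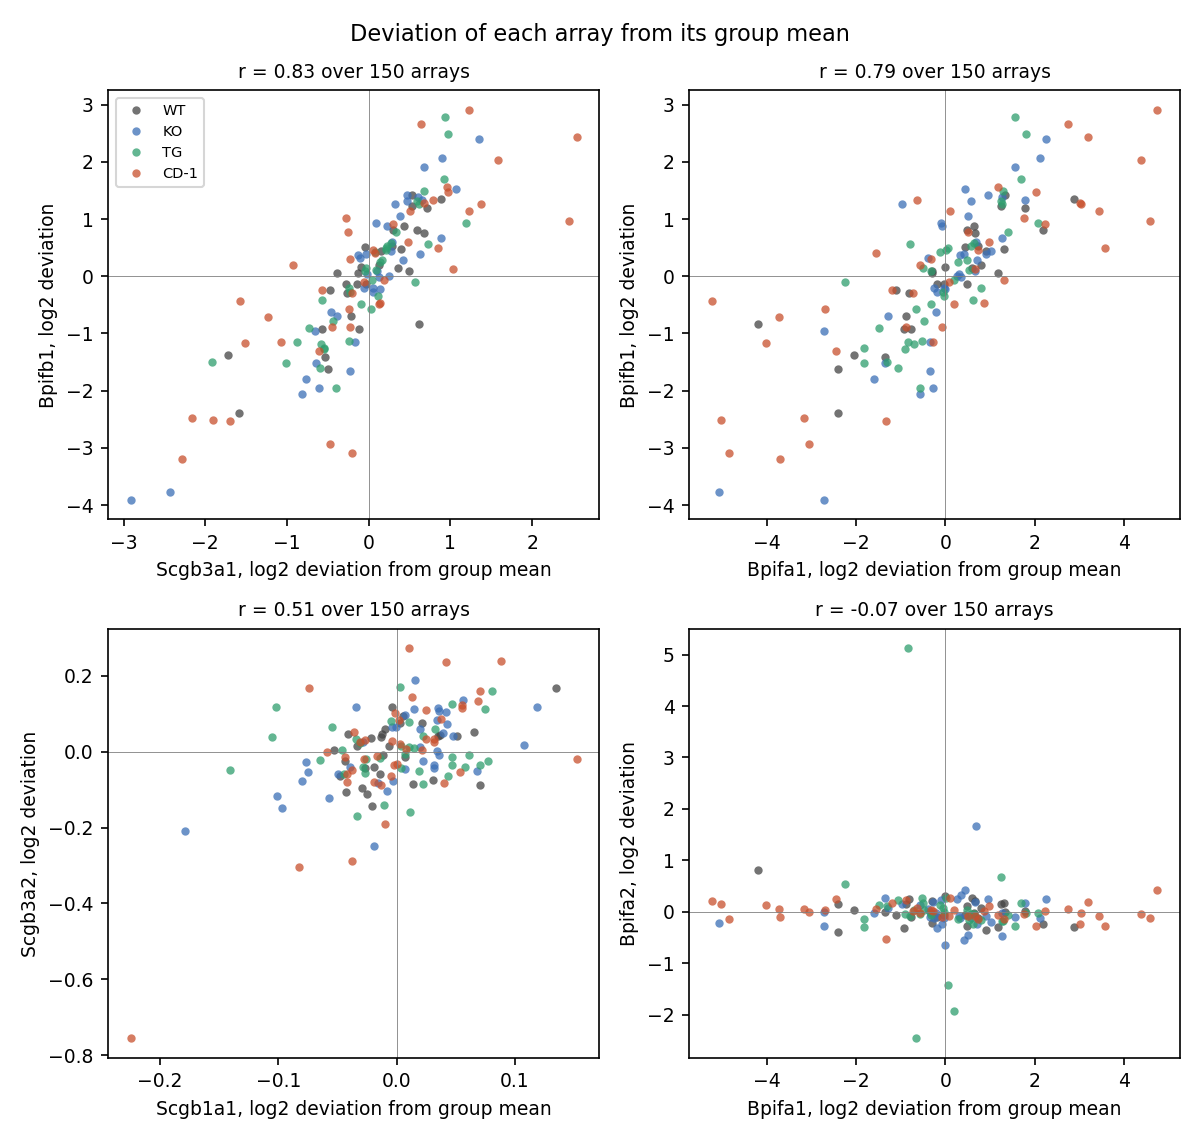
Deviation of each of 150 arrays from its group mean, in log2 units, for 4 pairs of genes, coloured by strain. Scgb3a1 and Bpifb1 (r = 0.83) and Bpifa1 and Bpifb1 (0.79) spread along a diagonal, Scgb1a1 and Scgb3a2 (0.51) do so over a much smaller range, and Bpifa2 does not follow Bpifa1 (−0.07).

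The genes most like each member in these deviations, as a description over 150 arrays, differed between the 3 kinds. For Scgb3a1 they were Muc5b (r = 0.88), Tff2 (0.84), Reg3g (0.83), Bpifb1 and Bpifa1, and for Bpifb1 Reg3g (0.86), Scgb3a1, Tff2 (0.79), Bpifa1 and Muc5b (0.78). Bpifa1 had Bpifb1 and Scgb3a1 ahead of Reg3g (0.71), a secreted antibacterial lectin, Muc5b (0.67) and Lypd2 (0.65). Scgb3a2 had Clic6 (0.81), Pifo (0.79), Foxa1 (0.79), Tmem212 (0.77) and Spa17 (0.77), and Scgb1a1 had Fhl1 (0.61), Ces1d (0.59), Cbr2 (0.59), Aox1 (0.55) and Mylk (0.55). Those of Bpifa2 were Dnase1 (0.81), 2310057J18Rik (0.78), Car6 (0.73), Pip (0.71) and Wfdc12 (0.46), and the first 4 were high in the TG lung described above.

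Several marker lists, though not all, moved with some of the members in the same deviations. The mean of 18 club cell markers had r = 0.82 with Scgb3a2, 0.65 with Bpifb1, 0.59 with Scgb3a1, 0.57 with Bpifa1 and 0.46 with Scgb1a1, and that of 14 ciliated markers 0.77, 0.61, 0.53, 0.52 and 0.52. The mean of 23 other airway secreted proteins had 0.74 with Bpifb1, 0.70 with Scgb3a1 and 0.46 with Bpifa1, but 0.26 with Scgb3a2 and 0.03 with Scgb1a1. That of 5 other BPI fold genes had r of 0.03 to 0.23 with the members other than Bpifa2. For 2 other secretoglobins these were −0.22 to −0.14. The mean of 12 heart muscle markers had r of 0.52 to 0.58 with Scgb3a2, Scgb3a1, Bpifa1 and Bpifb1, and its array means ranged from 4.09 to 7.82. For 11 alveolar type 2 markers r lay between −0.13 and 0.16 for all 6 genes. The amount of airway or heart tissue in each piece of lung was not measured, and its part in these correlations was not tested.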

How the data were processed

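Whole-lung RNA of 150 mice was measured on Affymetrix HT MG-430 PM arrays. The deposited values are log2 intensities of 45037 probe sets, made by RMA with Partek per the submitters' processing notes, with versions and array build not given in the sources used here. GEO's platform annotation gave a single gene for 28898 probe sets, several for 551 and none for 15588, and symbols were updated through RefSeq for 28689. For each of 17097 genes the probe set with the highest mean was kept, and 15695 genes above the array's 30th percentile in at least 3 arrays were tested. All 31 group means and a plate 2 term were fitted with limma 3.58.1 (R 4.3.3), with Benjamini-Hochberg adjustment over all genes tested and a threshold of 0.05, and the steps were tested on simulated data. Weeks were weighted equally in comparisons over several weeks, and several comparisons share the same air groups. Plates were read from well labels. Correlations used scipy 1.17.1 and numpy 2.4.6, figures matplotlib 3.10.9.

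Arrays have no read depth, and the number of mice limits the precision. The members and lists were chosen with earlier results of these data known. Of the listed genes those without a named probe set were not analysed here. The airway secreted list and the club cell list share Cyp2f2. Named genes were the members, the 5 genes most like each in deviations from group means, and up to 4 called genes of each list and kind of comparison with the smallest p; other salivary genes were named after their values were seen. Alternatives changed the filter, the probe set rule, the fit, the plate terms, the scaling and the mice included. No 2 arrays were identical (highest correlation 0.996).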

Additional observations from a re-analysis of the deposited data

Results flagged for a closer look

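In 162 groups of 4 to 10 mice with values of a member, 14 had a highest or lowest mouse far from the rest, and chance alone gives about 1 in 20. For Scgb1a1 these were TG air mouse 4 of 26 weeks (13.89, nearest 13.90), TG air mouse 2 of 78 weeks (13.80, nearest 13.92), CD-1 air mouse 3 of 104 weeks (13.59, nearest 13.81) and, on the high side, WT styrene mouse 1 of 78 weeks (13.96, nearest 13.80). For Scgb3a1 they were WT styrene mouse 5 of 26 weeks (10.13, nearest 11.84), KO styrene mouse 1 of 104 weeks (9.23, nearest 11.90), CD-1 air mouse 3 of 104 weeks (8.61, nearest 10.56) and, high, CD-1 air mouse 3 of 26 weeks (13.11, nearest 12.09). Scgb3a2 had CD-1 air mouse 2 of 78 weeks (12.99, nearest 13.30).

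Bpifa1 had KO styrene mouse 1 of 104 weeks (5.49, nearest 10.82) and, high, TG air mouse 3 of 26 weeks (13.40, nearest 11.51), and Bpifb1 had TG air mouse 1 of 78 weeks (6.97, nearest 8.39). Bpifa2 had, both high, TG styrene mouse 1 of 26 weeks (3.54, nearest 3.24) and KO styrene mouse 5 of 52 weeks (5.20, nearest 3.51). The same mouse stood out for Scgb3a1 and Bpifa1 in the KO styrene group of 104 weeks, and for Scgb1a1 and Scgb3a1 in the CD-1 air group of 104 weeks.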

How the results depend on the processing

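No test of a member reversed a called direction under any setting tried. Counts of called members that moved by over 1.5 times were as follows. With C57BL/6 and CD-1 fitted separately the 8 calls for age in air became 4, the 1 averaged styrene call 0 and the 2 styrene calls within a week 1. Quantile normalization left 5 age calls. The averaged styrene calls were 2 without a plate term and 0 without plate 2 arrays. The within-week calls were 1 under the 50th percentile filter, which drops Bpifa2, 1 under either plate 4 term and 1 without tumour-labelled mice. The 1 call of the comparisons added after seeing the data became 2 under that filter, with the mean of probe sets, without plate 2, with a plate 4 term that puts the open KO arrays on plate 3, and without tumour-labelled mice. With 1 mouse left out, calls ranged from 4 to 9 for age, 0 to 2 for strain in air, 0 to 3 for strain under styrene, 0 to 1 for averaged styrene, 1 to 3 within a week, 0 to 2 for the added comparisons, and 0 to 0 for differences of effect. The cause was not tested. Separate fits and left-out arrays use fewer mice. CD-1 fitted alone also has its own spread, for Bpifa1 an SD of 2.99 against 2.02 over all strains. Replicate numbers do not pair mice (21 of 64 pairs had r over 0.1, median 0.01), and with the replicate number as a block 1 of 17 calls was lost and 0 gained. Each array centred on its median, 4 tests gained a call, among them Scgb3a1 in CD-1 from 26 to 78 weeks (−1.40, adjusted p = 0.0498). Scgb1a1 and Scgb3a2 lie near the top of the scale and Bpifa2 near its floor, which limits what they can show.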
